A study of Gallus gallus with 6 samples.

Results

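Translation factors and aminoacyl-tRNA synthetases of embryonic chicken bursal lymphocytes were compared between embryonic day 19 (ED19) and embryonic day 16 (ED16). The genes were those whose symbol, in the authors' table of differentially expressed genes, begins as an initiation factor (EIF) or elongation factor (EEF), or names a release factor (ETF1, GSPT), a tRNA synthetase or an AIMP scaffold protein. The pattern matched 31 genes among 7806 named and 8469 listed genes, and the count table holds 19219 genes. Only genes that the authors called different between the stages carry a symbol, so the comparison of ED19 with ED16 itself chose the 31 genes. Their stage differences are therefore given below as a description and without p-values.

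The study sequenced poly-A RNA of bursal cells to compare B-cell development at the 2 stages. There were 3 libraries of ED19 (ED19_4, ED19_5 and ED19_6) and 3 of ED16 (ED16_1, ED16_2 and ED16_3), each from its own pool of bursas. All 6 pools came from untreated embryos of the Hy-Line W-36 commercial layer line, a White Leghorn type of egg-laying chicken. The bursa of Fabricius is the organ in which chicken B-cells develop. Its cells were dispersed and spun on Histopaque, a density gradient, to isolate the lymphocytes, with no sorting for B-cells described. Each library is an average over many embryos and over every cell type that passed the gradient.

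Protein synthesis starts when eIF2 brings the initiator tRNA to the small ribosomal subunit, eIF3 and eIF1A prepare that subunit, and the eIF4 proteins bring in the mRNA by its cap. The exchange factor eIF2B recharges eIF2 with GTP, and kinases that phosphorylate eIF2α block this step and slow initiation. Elongation then adds amino acids from tRNAs that have been charged by tRNA synthetases, which exist as a cytosolic and a mitochondrial set. Lymphocytes adjust this machinery as they grow, divide and come to rest.

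Library totals ranged from 27087661 to 32961602 gene counts at ED19 and from 30056824 to 34614652 at ED16. Library ED19_6 stood apart: 14454 genes had a count in it, against 15349 and 15177 in ED19_4 and ED19_5 and 16532 to 16713 in the ED16 libraries. It also had the lowest total of the 6 libraries (27087661), and the part of depth in its lower number of genes was not tested. The cells were labelled as B-lymphocytes. Of 15 B-cell marker genes written down, 5 were found by name, all of them called genes. Among these, 4 were higher at ED19 and BLK was lower (log2 fold change -0.84). The 5 markers summed to 338 to 493 RPKM at ED19 and 168 to 191 at ED16. BLNK made up most of the sum at both stages (232 to 304 RPKM at ED19 and 98.3 to 121 at ED16). RPKM is a read count scaled by the length of the gene and by the total of the library. Markers of other cell types could also be found only among called genes, so markers without a stage difference could not be seen. Of the 52 that were tested, 50 were higher at ED16 and 2 (CD2 and PECAM1) at ED19. Of all tested genes, 35.6% were called higher at ED16 and 30.8% at ED19. The summed RPKM of erythroid markers was 113 to 201 at ED19 and 2932 to 4412 at ED16, that of T-cell markers was 143 to 235 at ED19 and 297 to 393 at ED16, and that of myeloid markers was 19.9 to 26.6 at ED19 and 92.1 to 127 at ED16. Epithelial markers summed to 5.28 to 6.58 RPKM at ED19 and 137 to 298 at ED16, fibroblast markers to 3.96 to 5.75 at ED19 and 17.7 to 20.6 at ED16, and endothelial markers to 3.74 to 13.0 at ED19 and 2.18 to 3.34 at ED16. PECAM1 made up most of the endothelial sum, and the other 4 tested endothelial markers were higher at ED16. CD3D made up most of the T-cell sum at ED19 (115 to 205 RPKM, against 219 to 254 at ED16), and the median log2 fold change of the 11 T-cell markers was -2.24. Kidney tubule markers summed to 7.04 to 9.60 RPKM at ED19 and to 259 RPKM in ED16_1, with 117 and 93.3 in the other ED16 libraries, and the kidney genes AGXT and PIPOX were at 0 in every ED19 library. The part of these other cells in the differences below was not tested, and in such bulk RNA fewer cells of a type and less RNA per cell cannot be told apart.

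The 31 genes split unevenly between the stages. At ED19, 20 genes were higher, among them all 3 eIF2α kinases found by name, the eEF2 kinase and 4 of 5 mitochondrial synthetases, and at ED16, 11 genes were higher, among them 4 of 8 cytosolic synthetases and EIF4EBP1, whose difference vanished with a correction for gene length. Of the 3 subunits of the eIF3 assembly found by name, 1 differed in the opposite direction to the others. The 2 subunits of eIF2B found by name differed in opposite directions. The median log2 fold change of ED19 over ED16 was 0.71 over the 31 genes, and single values ran between -1.74 for EIF4E3 and 2.59 for EEF2K. As all 31 are called genes, none lay between -0.69 and 0.65, so their median could not lie near 0. The median over all 13923 genes tested was -0.05, but that set includes genes that were not called, so the 2 medians are of unlike sets. With edgeR's quasi-likelihood test all 31 genes passed an adjusted p of 0.05, as the choice of called genes made likely, where 66.4% of all tested genes did. The share of all tested genes called was 30.8% for higher at ED19 and 35.6% for higher at ED16. Of the 20 genes higher at ED19, 7 differed at least 2-fold, against 58.4% of all genes called in that direction, and 8 of the 11 genes higher at ED16 did so, against 79.9%. On TMM-scaled counts, which adjust for library composition, the stages did not overlap for 30 of the 31 genes (20 higher at ED19 and 10 at ED16), where 71.5% of all tested genes did not overlap, 33.1% higher at ED19 and 38.4% higher at ED16. EIF4EBP1 was the exception, and on the RPKM scale it did not overlap either.

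**Figure D1:**
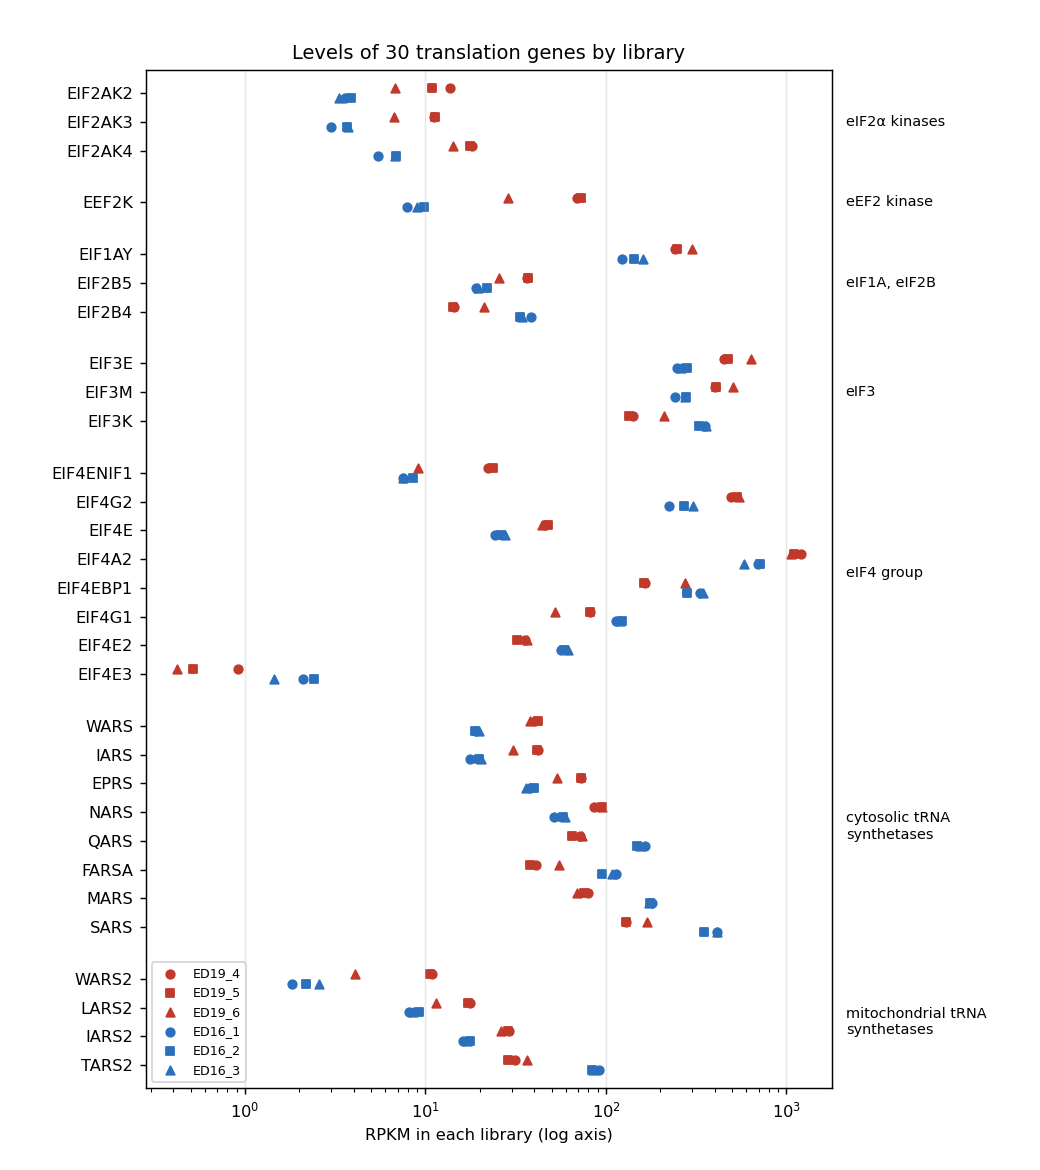
RPKM of 30 of the 31 genes on a log axis, with 1 point per library, ED19 libraries in red above ED16 libraries in blue, grouped by role. EIF4A2 had the highest levels, 1059.6 to 1200.2 RPKM at ED19 and 585 to 711 at ED16, and EIF4E3 had the lowest.

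**Figure D2:**
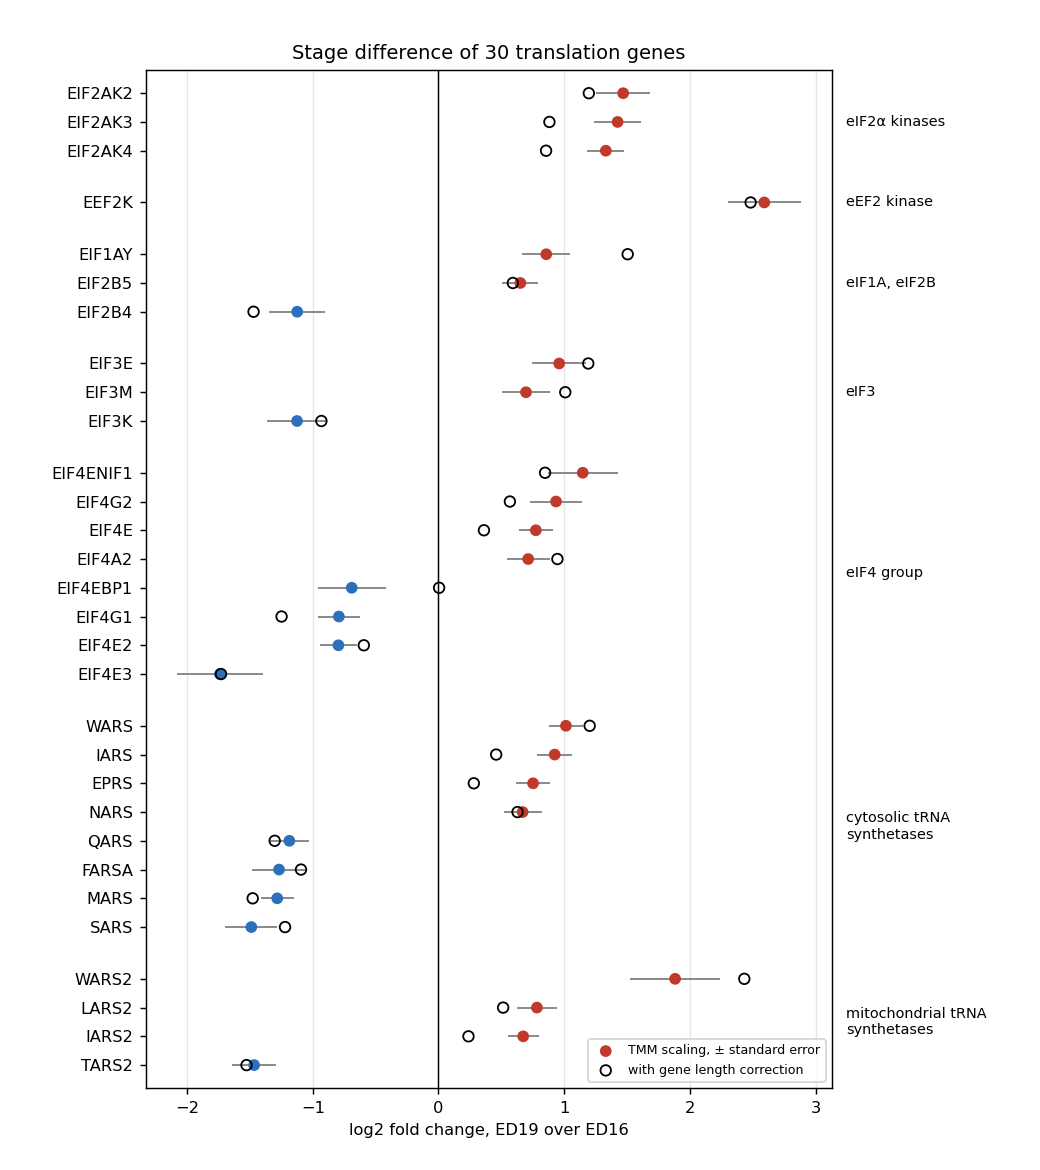
Log2 fold change of ED19 over ED16 for 30 of the 31 genes; filled points are edgeR estimates with TMM scaling and bars their standard errors, and open circles are the estimates after a correction for gene length. The filled points lie between -1.74 and 2.59, and the open circle of EIF4EBP1 lies at 0.00 beside its filled point at -0.69.

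Most of the genes were well expressed. The mean RPKM over the 6 libraries was above that of the median tested gene (7.70) for 27 of the 31. The lowest count of any of them in a library was 23, for EIF4E3, whose 6 libraries together held 499 counts. Their RPKM values summed to 4102.5, 4062 and 4447 in ED19_4, ED19_5 and ED19_6, and to 3608, 3611 and 3681 in ED16_1, ED16_2 and ED16_3. The ED19 sums were all above the ED16 sums on this scale, which has no TMM scaling. EIF4A2 alone supplied 1059.6 to 1200.2 RPKM at ED19 and 585 to 711 at ED16. The median RPKM of the 31 genes was 41.7, 41.9 and 38.0 in ED19_4, ED19_5 and ED19_6. In ED16_1, ED16_2 and ED16_3 it was 38.3, 40.1 and 36.2, so the medians overlapped between the stages.

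The 4 kinases found by name that restrain protein synthesis, EEF2K and 3 of the eIF2α kinases, were higher at ED19. EIF2AK4, also known as GCN2, senses uncharged tRNA when amino acids run short. It was measured at 18.2, 17.6 and 14.2 RPKM in ED19_4, ED19_5 and ED19_6 and at 5.46, 6.84 and 6.82 RPKM in ED16_1, ED16_2 and ED16_3. The lowest ED19 library was thus above the highest ED16 library, and the fold was 2.52 (log2 fold change 1.33 ± 0.15, SE). EIF2AK3, or PERK, responds to unfolded protein in the endoplasmic reticulum. Its levels were 11.1, 11.2 and 6.69 RPKM at ED19 and 2.98, 3.65 and 3.71 RPKM at ED16, a fold of 2.68. EIF2AK2, or PKR, is activated by double-stranded RNA, and it had 13.7, 10.9 and 6.75 RPKM at ED19 against 3.58, 3.88 and 3.31 RPKM at ED16, a fold of 2.77. The 3 fold changes were nearly equal, with log2 values between 1.33 and 1.47, and in each case ED19_6 was the lowest ED19 library and still above all ED16 libraries. EIF2AK3 (6969 bases) and EIF2AK4 (5940 bases) were the longest of the 31 transcripts and EIF2AK2 had 2999 bases, and after the length correction their log2 fold changes were 0.88 for EIF2AK3, 0.86 for EIF2AK4 and 1.20 for EIF2AK2.

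EEF2K (ENSGALG00000006982), the calcium- and calmodulin-dependent kinase that phosphorylates elongation factor eEF2 and so slows elongation, had the largest difference of the 31 genes. It was measured at 69.1, 72.7 and 28.6 RPKM in ED19_4, ED19_5 and ED19_6, and at 7.91, 9.86 and 8.99 RPKM in ED16_1, ED16_2 and ED16_3. All ED19 libraries were above all ED16 libraries, but ED19_6 held less than either of the other ED19 libraries by a wide margin. The fold was 6.03 (log2 fold change 2.59 ± 0.29, SE), and the log2 value was 2.92 without ED19_6 and 2.48 with the length correction. EEF2K was the only gene beginning with EEF among the named genes, so no elongation factor proper could be described. No release factor and no AIMP scaffold protein of the synthetase complex was found by name either.

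The factors that load the initiator tRNA were divided. EIF2B4 and EIF2B5 encode the δ and ε subunits of eIF2B, of which ε carries the exchange activity. EIF2B5 had 36.5, 36.8 and 25.6 RPKM at ED19 and 19.2, 21.9 and 19.5 RPKM at ED16. EIF2B4 had 14.4, 14.2 and 21.0 RPKM at ED19 and 38.3, 33.5 and 34.4 RPKM at ED16. Their log2 fold changes had opposite signs, 0.65 ± 0.14 for EIF2B5 and -1.12 ± 0.22 for EIF2B4 (SE). Within a library, the ratio of EIF2B5 to EIF2B4 was 2.53, 2.60 and 1.22 at ED19 and 0.4997, 0.652 and 0.565 at ED16, so that ε transcripts exceeded δ transcripts per length in every ED19 library and in no ED16 library. The gene that the annotation names EIF1AY (ENSGALG00000016410), of the eIF1A family, had 241, 247 and 300.1 RPKM at ED19 and 122, 143 and 159.6 RPKM at ED16. This eIF1A gene is short (848 bases), and its log2 fold change was 0.86 ± 0.19 (SE) with TMM scaling and 1.51 after the length correction. Reads that it may share with a near-identical copy could not be told apart from the counts.

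In eIF3, the scaffold that keeps the small subunit ready for the mRNA, 3 of the subunits were found by name. EIF3E was measured at 453, 472 and 637 RPKM in ED19_4, ED19_5 and ED19_6 and at 248, 281 and 260.4 RPKM in ED16_1, ED16_2 and ED16_3. EIF3M was measured at 401, 406 and 507 RPKM at ED19 and at 240.4, 278 and 275 RPKM at ED16. For both, no ED16 library reached the lowest ED19 library, with folds of 1.95 for EIF3E and 1.62 for EIF3M, though EIF3M, with a log2 fold change of 0.70 ± 0.19 (SE), was not called when ED16_1 was left out (0.63). EIF3K, a small peripheral subunit, went the other way, with 141, 134 and 210.5 RPKM at ED19 and 353, 329 and 359 RPKM at ED16. It was 2.18-fold higher at ED16. The 3 transcripts have lengths of 1326 to 1543 bases, and with the length correction the log2 fold changes were 1.19 for EIF3E, 1.01 for EIF3M and -0.93 for EIF3K. At ED16 the highest of the subunits exceeded the lowest by 1.47, 1.18 and 1.38 times in the 3 libraries, so their levels were close to each other. At ED19 the corresponding ratios were 3.22, 3.53 and 3.03, with EIF3E the highest and EIF3K the lowest in every library. Only 3 subunits carry a name here, and the others were not analysed.

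**Figure D3:**
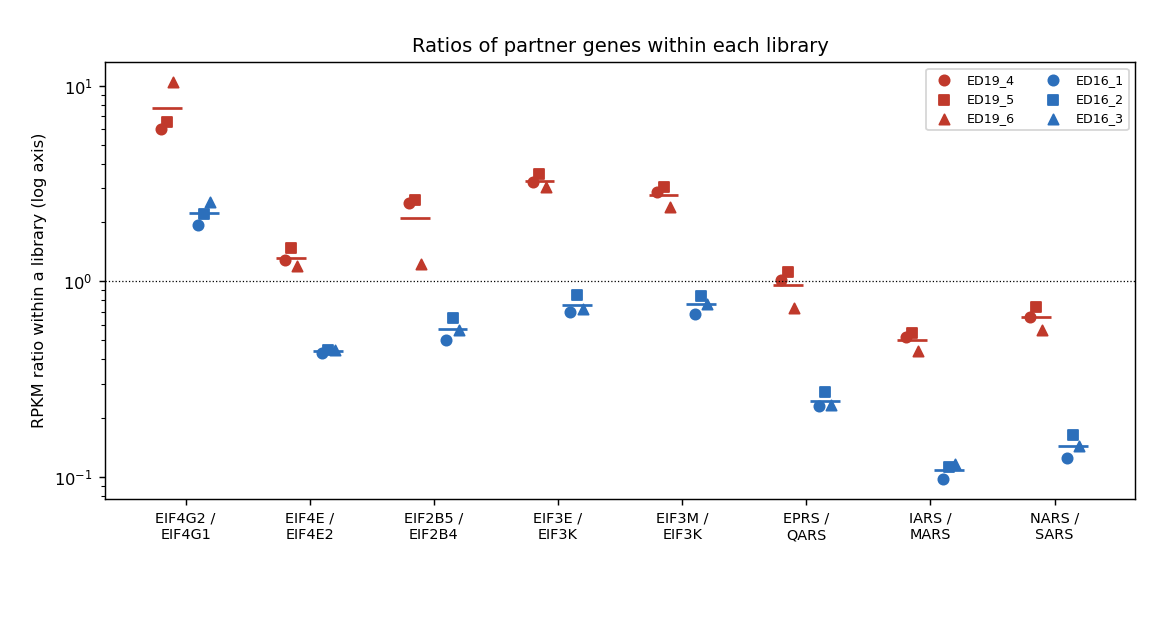
Ratio of the RPKM of partner genes within each library on a log axis, ED19 libraries in red left of ED16 libraries in blue, with a line at the mean of each stage and a dotted line at equal levels. Each of the 8 pairs sets a gene higher at ED19 over one higher at ED16, so that the ED19 ratios lie above the ED16 ratios by choice, for example 3.03 to 3.53 against 0.701 to 0.853 for EIF3E over EIF3K.

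The eIF4 proteins, which bind the mRNA cap and open the 5′ end, included 4 genes higher at ED19, 3 higher at ED16 and EIF4EBP1, for which no direction is read. The helicase EIF4A2 was the most abundant, at 1200.2, 1107 and 1059.6 RPKM at ED19 and 693, 711 and 585 RPKM at ED16, with a fold of 1.64. Among the scaffolds, EIF4G1 links the cap-binding protein to the ribosome, whereas EIF4G2 (also called DAP5) lacks the binding site for eIF4E and serves cap-independent initiation. EIF4G2 was measured at 490.0, 531 and 542 RPKM at ED19 and 222, 269 and 303 RPKM at ED16. EIF4G1 was measured at 81.2, 81.1 and 52.1 RPKM at ED19 and 114, 122 and 119.6 RPKM at ED16. EIF4G2 was thus higher (log2 fold change 0.94 ± 0.21, SE) and EIF4G1 lower (-0.79 ± 0.17, SE) at ED19. Both are long transcripts (4155 and 5160 bases), and the length correction gave 0.57 for EIF4G2 and -1.25 for EIF4G1. Within each library the ratio of EIF4G2 to EIF4G1 was 6.03, 6.54 and 10.4 at ED19 and 1.95, 2.21 and 2.53 at ED16, so the ratio of the stage means was 3.44.

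The cap-binding paralogs also moved in opposite directions. EIF4E, the main cap-binding protein, had 45.9, 47.6 and 44.0 RPKM at ED19 and 24.2, 26.1 and 27.5 RPKM at ED16. EIF4E2 (4EHP), a paralog that represses mRNAs to which it is recruited, had 35.7, 32.2 and 36.7 RPKM at ED19 and 56.4, 58.2 and 61.9 RPKM at ED16. EIF4E exceeded EIF4E2 in all 3 ED19 libraries and was below it in all 3 ED16 libraries, with ratios of 1.28, 1.48 and 1.20 at ED19 and 0.429, 0.448 and 0.444 at ED16. The log2 fold changes were 0.77 ± 0.13 for EIF4E and -0.80 ± 0.15 for EIF4E2 (SE). EIF4E has a long transcript (4817 bases), and with the length correction its log2 fold change was 0.36 and no longer called. That of EIF4E2 (1545 bases) was then -0.59 and still called. The length trend among libraries thus enters the ratio of EIF4E to EIF4E2 too. EIF4E3, the rarest of the 31 genes, had 61, 30 and 23 counts at ED19 and 147, 146 and 92 counts at ED16. In RPKM these are 0.913, 0.512 and 0.419 at ED19 and 2.096, 2.40 and 1.46 at ED16, with the largest difference towards ED16 of all 31 genes, a fold of 3.34 (log2 fold change -1.74, or -0.88 with limma on log2(RPKM + 1)). The summed RPKM of the 3 paralogs was 82.5, 80.2 and 81.1 at ED19 and 82.6, 86.6 and 90.9 at ED16. On this scale, which has no TMM scaling, the highest ED19 sum lay only just below the lowest ED16 sum. The sums differed far less between the stages than the parts, which are genes called in opposite directions.

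Of the proteins that hold eIF4E, EIF4ENIF1 (4E-T), which carries eIF4E into the nucleus and into processing bodies, had 22.2, 23.6 and 9.12 RPKM at ED19 and 7.51, 8.52 and 7.46 RPKM at ED16. Library ED19_6 came close to the ED16 libraries while the other ED19 libraries were well above them, and the log2 fold change was 1.15 ± 0.28 (SE), or 1.48 without ED19_6. EIF4EBP1 (ENSGALG00000003205), the repressor that mTOR kinase releases from eIF4E, had 165, 162 and 274 RPKM at ED19 and 332, 279.7 and 345 RPKM at ED16. The value of ED19_6 nearly reached that of ED16_2. Its log2 fold change of -0.69 ± 0.27 (SE) was the least secure of the 31: it lost its call when any library other than ED19_6 was left out, with values of -0.51 and -0.52 without ED19_4 and ED19_5 and of -0.66, -0.80 and -0.60 without ED16_1, ED16_2 and ED16_3. Without ED19_6 it was -1.04 and called, and with the length correction it was 0.00 and not called. EIF4EBP1 is the shortest transcript of the set (779 bases). No direction is therefore read for this gene.

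The cytosolic tRNA synthetases divided into 4 that were higher at ED19 and 4 that were higher at ED16, and the second set differed more. Over all called genes, differences of at least 2-fold were also more frequent towards ED16 (79.9%) than towards ED19 (58.4%). SARS (ENSGALG00000026809), which charges tRNA with serine, was the most abundant, at 129.6, 128 and 168 RPKM in ED19_4, ED19_5 and ED19_6 and at 409.7, 350.2 and 410.1 RPKM in ED16_1, ED16_2 and ED16_3. It was 2.81-fold higher at ED16, and its ED16 libraries were all above its ED19 libraries. MARS, the methionine enzyme, had 80.0, 75.9 and 69.1 RPKM at ED19 and 180.1, 175 and 174 RPKM at ED16, a fold of 2.43 towards ED16. QARS, the glutamine enzyme, had 71.8, 65.2 and 73.8 RPKM at ED19 and 164, 148 and 155 RPKM at ED16. FARSA, the α subunit of the phenylalanine enzyme, had 41.2, 38.0 and 54.6 RPKM at ED19 and 113, 94.5 and 108 RPKM at ED16. These 4 genes fell within a narrow range of log2 fold changes, from -1.49 for SARS to -1.19 for QARS, and the length correction left them between -1.48 (MARS) and -1.09 (FARSA).

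The other cytosolic synthetases were higher at ED19 by smaller amounts. WARS, the tryptophan enzyme, had 40.4, 41.9 and 38.0 RPKM at ED19 and 19.0, 18.7 and 19.9 RPKM at ED16, a fold of 2.02. IARS, the isoleucine enzyme, had 41.7, 41.5 and 30.6 RPKM at ED19 and 17.6, 19.8 and 20.2 RPKM at ED16. EPRS, which carries both the glutamate and the proline enzyme in a single chain, had 73.2, 73.2 and 53.8 RPKM at ED19 and 37.9, 40.1 and 36.2 RPKM at ED16. The transcripts of these last 2 are long (IARS 5557 and EPRS 5660 bases), and their log2 fold changes of 0.92 ± 0.14 and 0.75 ± 0.14 (SE) became 0.46 for IARS and 0.28 for EPRS with the length correction, under which EPRS was not called. NARS, the asparagine enzyme, had 85.5, 94.5 and 95.3 RPKM at ED19 and 51.2, 57.6 and 59.5 RPKM at ED16, and its log2 fold change was 0.67 ± 0.15 (SE), or 0.63 with the length correction.

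Together the 8 cytosolic synthetases summed to 563, 559 and 583 RPKM at ED19 and to 993, 904 and 982 RPKM at ED16. The stages did not overlap, although the numbers of genes in each direction were equal, because the 4 genes higher at ED16 were also the most abundant ones there. Among these 8 called genes, levels were also more even at ED19. The highest exceeded the lowest by 3.21, 3.38 and 5.51 times in the ED19 libraries. In the ED16 libraries it did so by 23.3, 18.7 and 20.6 times. The same held for MARS, QARS, EPRS and IARS, which in mammals sit in a single multisynthetase complex. Their highest level exceeded their lowest by 1.92, 1.83 and 2.41 times at ED19 and by 10.3, 8.84 and 8.59 times at ED16, when MARS was the highest and IARS the lowest in every library. The ratio of EPRS to MARS was 0.915, 0.963 and 0.779 at ED19 and 0.210, 0.229 and 0.209 at ED16. That of IARS to MARS was 0.522, 0.546 and 0.442 at ED19 and 0.0975, 0.113 and 0.116 at ED16. As EPRS and IARS are the longer transcripts of these 4, the length trend among libraries enters these ratios too. The sums and spreads restate the stage differences for which these genes were called. Synthetases that were not called carry no symbol, so the values do not describe the whole set of cytosolic enzymes or the whole complex.

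Among the mitochondrial synthetases, 4 of 5 were higher at ED19. WARS2 (ENSGALG00000014772), for tryptophan, had the largest difference, with 10.9, 10.6 and 4.05 RPKM at ED19 and 1.82, 2.17 and 2.56 RPKM at ED16. Its fold was 3.69 (log2 fold change 1.88 ± 0.36, SE), and ED19_6 again lay between the other ED19 libraries and the ED16 libraries. LARS2, for leucine, had 17.6, 17.1 and 11.5 RPKM at ED19 and 8.06, 9.16 and 8.51 RPKM at ED16. IARS2, for isoleucine, had 29.0, 28.8 and 26.0 RPKM at ED19 and 16.1, 17.7 and 17.0 RPKM at ED16. The log2 fold changes were 0.78 for LARS2 and 0.67 for IARS2, and with the length correction they were 0.51 for LARS2 and 0.24 for IARS2, of which IARS2, with a transcript of 5216 bases, was not called. TARS2, for threonine, was the exception, with 31.3, 28.8 and 36.4 RPKM at ED19 and 92.0, 83.5 and 84.9 RPKM at ED16, and was 2.76-fold higher at ED16.

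For 2 amino acids both the cytosolic and the mitochondrial enzyme were found. For isoleucine both were higher at ED19 with TMM scaling. The ratio of IARS2 to IARS was 0.694, 0.694 and 0.852 at ED19 and 0.920, 0.894 and 0.839 at ED16. Here ED19_4 and ED19_5 were below all ED16 ratios, and the stages overlapped only through ED19_6. For tryptophan the ratio of WARS2 to WARS was 0.269, 0.254 and 0.107 at ED19 and 0.0960, 0.116 and 0.128 at ED16. The ratios of ED19_4 and ED19_5 were above all ED16 ratios, and that of ED19_6 was among them. For threonine the cytosolic enzyme was not named, but TARSL2, a threonyl-tRNA synthetase-like gene that the naming pattern does not match, had 27.3, 25.5 and 24.0 RPKM at ED19 and 11.03, 12.8 and 11.2 RPKM at ED16. TARSL2 was 2.12-fold higher at ED19, opposite to TARS2.

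Library ED19_6 differed from the other ED19 libraries for many of the 31 genes. On TMM-scaled counts it was more than 1.5-fold off the mean of the other ED19 libraries for 10 genes, whereas ED19_4 was so for 1 gene and none of the other 4 libraries for any, each against the rest of its own stage. Its lowest genes were WARS2 (log2 ratio -1.19 to the mean of ED19_4 and ED19_5), EIF4ENIF1 (-1.11) and EEF2K (-1.10), and its highest were EIF4EBP1 (0.96) and EIF3K (0.83). Among the 11 genes higher at ED16, ED19_6 was the highest ED19 library for 9, and so the one nearest the ED16 levels, compared with 46.3% of all genes called in that direction. Among the 20 genes higher at ED19, it was the lowest ED19 library for 10 and the highest for 10, compared with 62.1% and 28.3% of all genes called in that direction. Over the 31 genes this deviation had a Spearman correlation of -0.45 with gene length, given as a description because the genes share the same libraries. All 20 and 11 calls remained when ED19_6 and ED16_1 were both left out, as the choice of called genes made likely. Over all tested genes, 4951 were then called higher at ED19 and 5439 higher at ED16, against 4287 and 4953 with all 6 libraries.

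**Figure D4:**
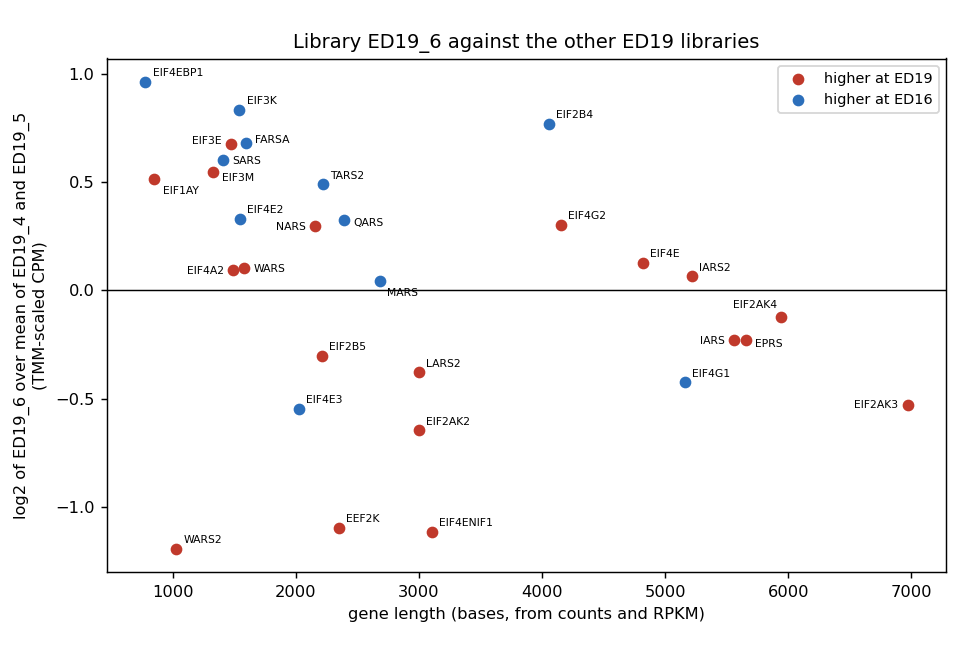
Deviation of ED19_6 from the mean of ED19_4 and ED19_5 (log2 of TMM-scaled counts) against gene length in bases, 1 point for each of 30 genes, coloured by the stage in which the gene was higher. Short genes lie mostly above 0, up to 0.96 for EIF4EBP1, and WARS2 (1029 bases, -1.19) is the short gene that lies lowest.

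Gene length also differed between the directions over all genes. The median length was 2883 bases for all genes called higher at ED19 and 1622 bases for those called higher at ED16, and for the 31 genes it was 2930.5 bases for the 20 and 2026 bases for the 11. A correction of each library for its trend with gene length left 17 of the 20 genes called higher at ED19 and 10 of the 11 called higher at ED16, where it called 64.5% of all tested genes, 31.6% higher at ED19 and 33% higher at ED16. The genes that lost their call were EIF4E, EPRS and IARS2, which have lengths of 4817 to 5660 bases, and EIF4EBP1. The kinases, EIF3K, EIF4E2, EIF4E3, EIF4G1, EIF4G2, the 4 synthetases higher at ED16, TARS2 and WARS2 remained called. Near the edge of the choice, the smallest log2 fold changes of the 31 genes were 0.65 for EIF2B5, 0.67 for NARS, 0.67 for IARS2 and, towards ED16, -0.69 for EIF4EBP1. The genes just outside it carry no symbol in the files.

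Other genes of protein synthesis were looked up by name among the called genes, so that again only called genes could be found. The counts and medians of these lists thus leave out genes without a stage difference. Of all tested genes, 30.8% were called higher at ED19 and 35.6% higher at ED16. All 5 mitochondrial translation factors found, of 16 written down, had higher levels at ED19, and their log2 fold changes were between 0.68 and 0.79: the initiation factors MTIF2 and MTIF3, the ribosome recycling factor GFM2, the release factor MTRF1L and GATB, a subunit of the enzyme that makes glutaminyl-tRNA in mitochondria. With the length correction the log2 fold change of MTIF2 was 0.41 and still called. For GFM2, ED19_6 (6.36 RPKM) lay just above ED16_2 (6.11 RPKM). GATB had 12.4, 13.1 and 5.92 RPKM at ED19 and 5.16, 6.09 and 6.02 RPKM at ED16. The stages overlapped for GATB on this scale, and its log2 fold change of 0.79 ± 0.26 (SE) lost its call in 7 of the alternatives, among them without ED19_4 (0.70), ED19_5 (0.63), ED16_1 (0.71) or ED16_2 (0.81).

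Of 32 regulators of translation written down, 15 were found, again all called genes. Among them 11 were higher at ED19 and 4 at ED16, with a median log2 fold change of 1.05. DHX29 (ENSGALG00000014700), a helicase that works with eIF3 on structured mRNA leaders, had 13.1, 13.3 and 11.1 RPKM at ED19 and 0.659, 0.905 and 0.763 RPKM at ED16. Its fold was 15.5 (log2 fold change 3.96 ± 0.18, SE), and with limma on log2(RPKM + 1), which understates changes of low genes, the log2 value was 2.92. PDCD4, an inhibitor of the eIF4A helicase, was higher at ED19 (log2 fold change 1.46), as were TSC1, which restrains mTOR (1.70), RPS6KB1, a kinase downstream of mTOR (1.22), and GCN1L1, a partner of GCN2 (0.79). For TSC1, ED19_6 had 4.75 RPKM, against 12.8 and 11.8 in ED19_4 and ED19_5. RPS6KB1 had 20.2 RPKM in ED19_6, against 40.1 and 43.4, and GCN1L1 had 15.0, against 27.8 and 27.7. The GCN1L1 value of ED19_6 lay just above that of ED16_2 (14.2 RPKM). GCN1L1 is long (8584 bases), and no length-corrected value is given for it here. LARP4, a poly-A binding regulator, had a log2 fold change of 1.05, but its libraries overlapped between the stages because ED19_6 was within the ED16 range. Towards ED16 the largest difference was that of MKNK2, a kinase of eIF4E, with 8.20, 7.82 and 3.93 RPKM at ED19 and 18.4, 17.2 and 13.0 RPKM at ED16. RPS6KB2 (-1.16), DOHH, which modifies eIF5A (-1.14), and ABCF3 (-0.94) were the others.

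Phosphorylated eIF2α is known to raise translation of the transcription factor ATF4, whose targets supply amino acids. ATF4 itself carries no symbol in the files, and of 24 of its targets and amino acid response genes 10 were found, again all called genes. Higher at ED19 were SLC38A2, an amino acid transporter (log2 fold change 1.26), XPOT, which exports tRNA from the nucleus (0.94), and ASNS, asparagine synthetase (0.84). ASNS had 97.1, 104 and 105 RPKM at ED19 and 48.5, 54.4 and 63.1 RPKM at ED16, without overlap. The other 7 were higher at ED16, and they include CHAC1, CEBPB, SESN2, PSAT1, SLC7A5, CTH, an enzyme of cysteine synthesis, and PHGDH, the first enzyme of serine synthesis. PHGDH had 0, 0.118 and 0.0210 RPKM at ED19 and 30.4, 10.6 and 8.29 RPKM at ED16. It was highest in ED16_1, and so was CTH, with 19.5, 22.1 and 23.0 RPKM at ED19 and 65.8, 43.6 and 34.1 RPKM at ED16. SESN2 (10.6, 5.63 and 4.16 RPKM in ED16_1, ED16_2 and ED16_3) and PSAT1 (3.72, 2.64 and 2.46 RPKM) were also highest in ED16_1 among the ED16 libraries. So was CHAC1 (2.87, 2.53 and 2.13 RPKM), whereas CEBPB was highest in ED16_2 and SLC7A5 in ED16_3. The summed kidney, epithelial, erythroid and fibroblast markers were likewise highest in ED16_1. Those of T-cell, myeloid and endothelial markers were highest in ED16_2. The part of any of these cell types in the 7 genes was not tested. The median log2 fold change of the 10 genes was -1.10, and without PHGDH it was -1.01.

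**Figure D5:**
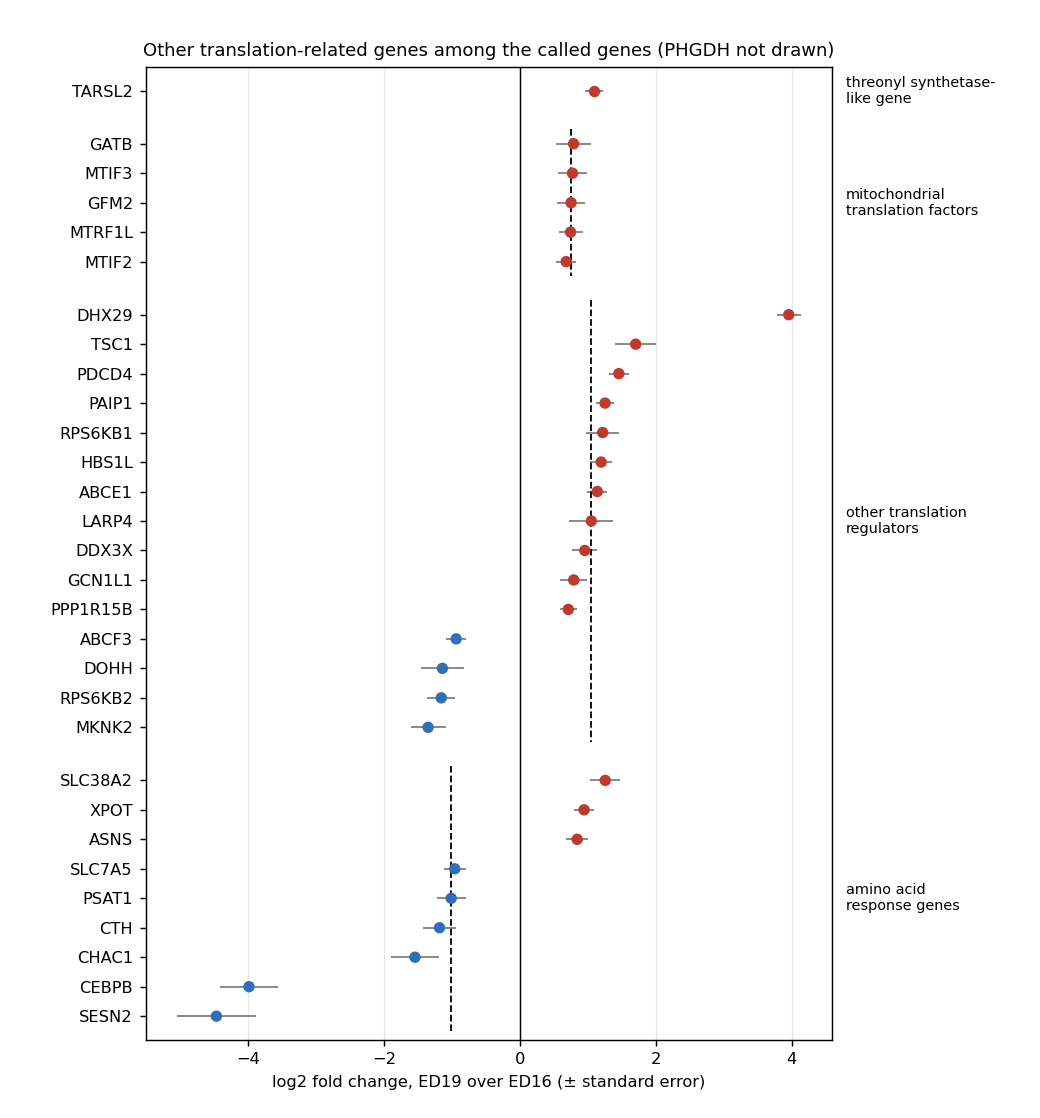
Log2 fold change of ED19 over ED16 with its standard error for TARSL2 and for the genes of 3 lists found among the called genes, with red points higher at ED19 and blue points higher at ED16, and a dashed line at the median of each list drawn. The mitochondrial factors lie between 0.68 and 0.79, DHX29 at 3.96, and 3 of the 9 amino acid response genes drawn lie above 0.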

How the data were processed

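Bursal cell RNA of 3 pools at ED19 and 3 at ED16 was sequenced as poly-A libraries, with a kit that does not mark strand. The authors deposited raw read counts per gene and RPKM values computed from them, and the submitters' processing notes name CASAVA 1.8, TopHat2 2.0.12, HTSeq 0.601, DESeq 1.10.1 and the build galGal4. The authors also deposited a table of called genes with a mean signal per stage, fold changes and p-values. Only its identifiers and symbols were used, and its fold changes and p-values were left out. Gene length was recovered from counts and RPKM and was whole within 0.01 bases for all 17458 genes with a count. Reads of overlapping antisense genes could not be separated.

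Counts were tested with edgeR 4.0.16 in R 4.3.3 (filterByExpr, TMM, quasi-likelihood F test, Benjamini-Hochberg over 13923 genes, threshold 0.05). Fold changes are ED19 over ED16, and the standard error is the log2 fold change divided by the square root of F. The p-values of this test weigh the stage difference against the spread between pools of the same stage. Alternatives were upper-quartile scaling, DESeq2 1.42.0, a minimum of 10 counts in all 6 libraries, no filter, a loess fit (span 0.5) that removed the trend with gene length within a library, limma 3.58.1 on log2(RPKM + 1), an adjusted p below 0.01 and leaving out each library. Leaving out ED16_1 and ED19_6 together was chosen after seeing the data. The test and the length correction were run on simulated counts in which only a small share of genes was changed. In the real data 66.4% of tested genes were called, so the simulation does not show how either performs here. Tables and figures were made with Python 3.11.15, pandas 2.3.3, numpy 2.4.6 and matplotlib 3.10.9.

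The 31 genes, the gene lists and the partner ratios were chosen with earlier results of these data known. Of 133 symbols written for translation factors and synthetases (older and newer names), 32 were found, the 31 genes and TARSL2. Genes described in full were the most abundant of each role, those with the largest difference in each direction with a mean log2 CPM of at least 3, all eIF2α kinases and eIF4E, eIF4G and eIF4A paralogs, amino acids with both synthetases, and the smallest differences. EIF3M, EPRS, MARS, QARS, FARSA and LARS2, and genes of the wider lists other than DHX29, MKNK2, GATB, SLC38A2 and PHGDH, were added after their values were seen. The values of 1 of the 31 genes are not reported here, and it is kept in the counts and medians only.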

Additional observations from a re-analysis of the deposited data

How the results depend on the processing

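The number of the 31 genes called was 17 to 20 for higher at ED19 and 10 or 11 for higher at ED16 under every alternative. The length correction gave 17 and 10. As the 31 genes were chosen as called in these same libraries, most calls were likely to be kept. Over all tested genes, the number called ran from 3232 to 5156 for higher at ED19. For higher at ED16 it ran from 3556 to 5793. Their median log2 fold change, 0.71 with TMM scaling, was 0.50 with upper-quartile scaling, 0.58 with at least 10 counts in every library and 0.51 with the length correction, and 0.72 to 0.74 when 1 library was left out. Upper-quartile scaling moved the median of all tested genes to -0.26 from -0.05, and all 31 genes kept their direction under it. Over the alternatives with the 0.05 threshold, 393 values of single genes kept direction and call, 9 kept direction only and 1 changed sign. EIF4EBP1 was the gene that changed sign, with a log2 fold change of 0.0049 under the length correction. No paired analysis was possible because the stages share no replicate numbers (4 to 6 at ED19, 1 to 3 at ED16). The alternatives were computed for 7 of the other genes (MTIF2, GATB, MKNK2, DHX29, PHGDH, SLC38A2 and TARSL2), of which GATB lost its call at the 0.05 threshold, in 7 alternatives. With at least 10 counts in every library PHGDH was not tested. No correction for GC content was made, since no gene sequence was used here. The paper reports a higher GC content of the reads and a lower share of mapped reads in every ED16 library than in any ED19 library. It also gives a lower average RNA integrity score for ED16. These differences coincide with the stages, and their part in the results was not tested. Levels are relative to all counted RNA, 3 pools per stage limit the precision, and translation genes that were not called carry no name.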
